A study of Mus musculus with 32 samples.

Results

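Pyruvate stands where glycolysis, lactate and alanine meet the mitochondrion, and 10 genes that decide its entry and its first step there were followed through the livers of wild-type (WT) and MCAD-knockout (KO) mice. They were Pdha1, Pdhb and Dlat, which encode the E1 and E2 parts of the pyruvate dehydrogenase complex, the kinases Pdk1, Pdk2 and Pdk4, the phosphatase Pdp2, the carboxylase Pcx and the carrier subunits Mpc1 and Mpc2. They were listed by name for this role, with earlier results of these data known, and make up 10 of the 20076 genes in the count table. All 10 had enough reads to be tested.

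Male C57BL/6J mice lacking Acadm, the gene of medium-chain acyl-CoA dehydrogenase (MCAD), in the whole body and their WT littermates, on a background reached by repeated backcrossing, had been kept on a low-fat (LF) or a high-fat (HF, palm oil) semi-synthetic diet for 6 weeks. They were then fasted for 16 h, with food removed in the early evening, or kept on the diet, which gave 8 groups of 4 livers (WT or KO, LF or HF, fed or fasted). All fed and fasted mice were killed in the morning, and ages are labelled 7.5 to 16 with no unit. The comparisons below used 30 of the 32 livers, 3 in the WT LF fed and KO HF fasted groups and 4 in each of the others.

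In the fed state the pyruvate dehydrogenase complex turns mitochondrial pyruvate into acetyl-CoA, an irreversible step that commits carbohydrate carbon to oxidation or to fat synthesis. Its kinases switch the complex off by phosphorylating the E1 alpha subunit, and its phosphatases switch it back on. In the fasted liver pyruvate is instead turned into oxaloacetate by pyruvate carboxylase, which feeds gluconeogenesis. Both routes depend on the mitochondrial pyruvate carrier, which is built from Mpc1 and Mpc2, and Pdk4 is the kinase best known to follow fasting and fatty acid supply.

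The 2 left-out libraries were set aside by the rule that defined the set of genes. Levels are given as counts-per-million (CPM) values of the reads on genes, after scaling between libraries. The library labelled KO HF fasted replicate 4 held 38631 CPM of 12 heart markers, against 0.369 to 65.1 CPM in the 30 livers scaled with it, and 896 CPM of 10 hepatocyte markers, against 47520 to 78307 CPM. WT LF fed replicate 2 held 44393 CPM of the hepatocyte markers, under that range. In the 30 livers 2031053 to 4292200 reads were counted on genes. Acadm checked the genotype labels, with 26 to 94 counts in the 15 KO livers and 566 to 2752 counts in the 15 WT livers. Of the 30 livers, 6 held more than 50 CPM of summed markers of skeletal muscle, acinar pancreas or adrenal cortex, and the calls on the 10 genes were also computed on the 24 others. In bulk liver RNA a change in the number of cells of one type and a change in the RNA per cell cannot be told apart.

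Of the 5 genes that moved with fasting (below), Dlat, Pdk1 and Pcx are shown first by the 250 bases before their start sites, to set side by side what lies upstream of a pair that fell and the gene that rose most. The sequences are those of RefSeq on GRCm38.p6, 5′ to 3′ on the strand of the gene, and capitals mark the GC box (GGGCGG) and the CCAAT box (CCAAT) on either strand. Both motifs were added after the windows had been looked at. Dlat (chr9:50659781-50660030, minus strand) and Pdk1 (chr2:71872974-71873223, plus strand) fell, and Pcx (chr19:4510222-4510471, plus strand) rose. Pdk1 and Pcx have 2 start sites each, and the one shown is upstream of the other.
Dlat: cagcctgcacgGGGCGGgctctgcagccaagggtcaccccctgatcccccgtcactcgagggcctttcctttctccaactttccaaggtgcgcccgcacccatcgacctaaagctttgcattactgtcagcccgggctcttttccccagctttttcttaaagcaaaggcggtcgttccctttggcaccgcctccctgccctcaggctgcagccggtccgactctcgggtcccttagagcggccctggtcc
Pdk1: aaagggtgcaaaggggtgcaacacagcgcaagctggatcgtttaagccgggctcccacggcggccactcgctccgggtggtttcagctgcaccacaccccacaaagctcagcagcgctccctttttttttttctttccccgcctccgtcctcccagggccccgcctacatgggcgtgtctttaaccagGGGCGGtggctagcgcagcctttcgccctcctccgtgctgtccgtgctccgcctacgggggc
Pcx: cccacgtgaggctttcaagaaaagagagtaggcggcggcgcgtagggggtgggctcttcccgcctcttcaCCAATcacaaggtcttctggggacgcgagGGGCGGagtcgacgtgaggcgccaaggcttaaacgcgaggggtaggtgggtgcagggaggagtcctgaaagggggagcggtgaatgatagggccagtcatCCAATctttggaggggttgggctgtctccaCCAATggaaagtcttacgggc
Each of the 3 windows held 1 GC box, and that of Pcx also held CCAAT boxes. Pdhb and Mpc2, whose windows overlap first exons of GENCODE transcripts and are not printed, held both motifs. The table gave 14 windows for the 10 genes, since Pdk2 and Mpc1 also have 2 start sites, of which 8 held the GC box and 7 the CCAAT box, against 32.7% and 33.8% of all 32851 windows of this length. Their GC content ran from 38.4% to 73.6%, against a median of 52.4% over all windows. The FoxO element GTAAACA, the estrogen-related receptor element TCAAGGTCA and the direct repeat AGGTCANAGGTCA of peroxisome proliferator-activated receptors were also searched on both strands. They occurred in 3.17%, 0.387% and 0.0335% of all windows and in none of the 14, Pdk4 included, which says only that these letters are not in these windows.

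**Figure D1:**
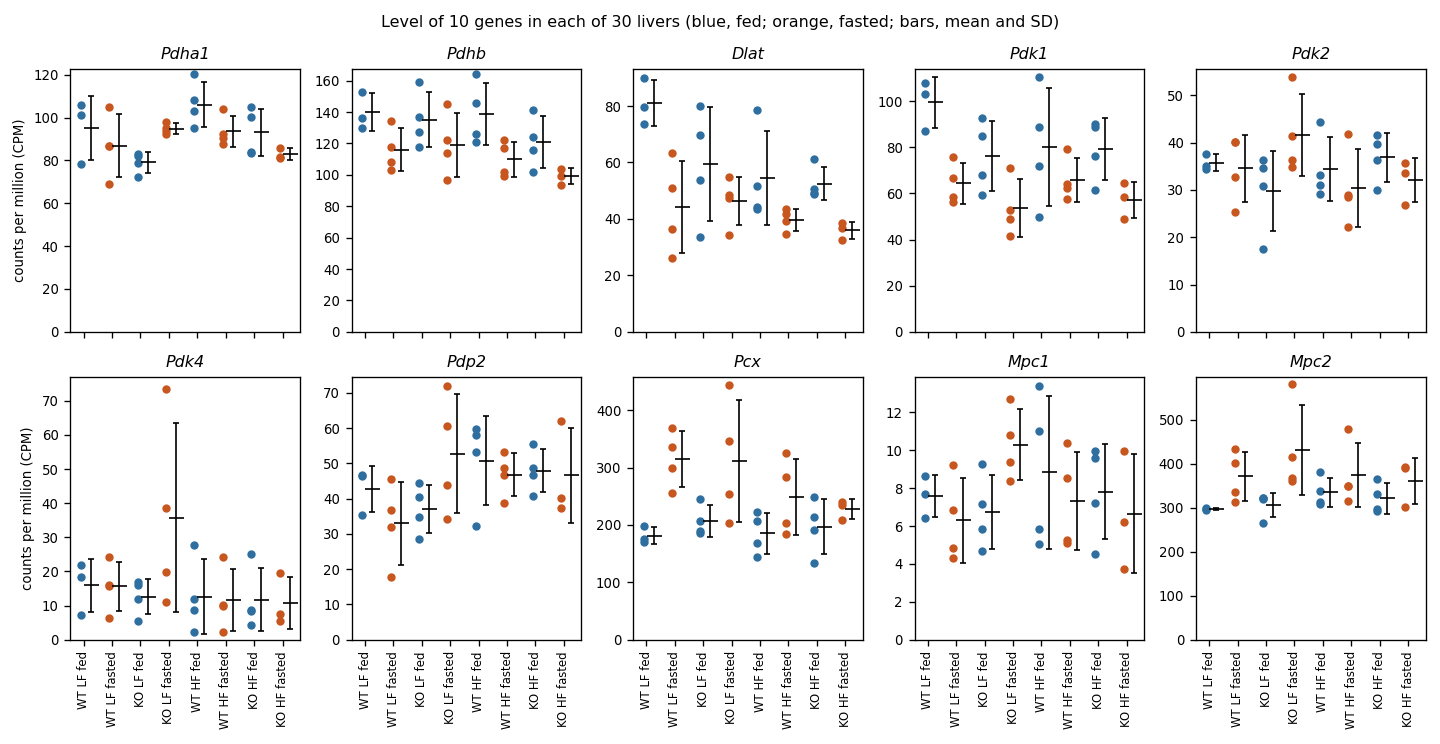
Level of each of the 10 genes in counts-per-million (CPM) in 30 livers, by group (blue, fed; orange, fasted), with the group mean and SD beside the points. Dlat and Pdk1 lie lower and Pcx and Mpc2 higher in fasted mice, and Pdk4 has its widest spread, 11 to 73.5 CPM, in KO LF fasted livers.

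After fasting, transcripts of 2 of the 3 subunits of the complex in the set and of 1 of the 3 kinases in it were lower. Those of the carboxylase and of 1 carrier subunit were higher. Averaged over both genotypes and both diets, Dlat fell by 32.1%, Pdk1 by 27.9% and Pdhb by 17.1%, whereas Pcx rose by 42% and Mpc2 by 21.7%. Pdha1, Pdk2, Pdk4, Pdp2 and Mpc1 did not pass the test. Thus 5 of the 10 genes were called at an adjusted p under 0.05, 3 lower and 2 higher, beside 18.9% of the 11566 genes tested, 9.14% lower and 9.77% higher. Calls are from the quasi-likelihood F test of edgeR in a model of the 8 groups, adjusted after Benjamini and Hochberg over all genes tested. The median log2 fold change of the 10 genes was -0.03, against -0.00 over all genes tested. Over all genes 1130 were higher and 1057 lower. Without scaling beyond library totals the split was 765 higher and 1561 lower, and in that setting Pdhb, Dlat and Pdk1 were called lower and Pcx higher, whereas Mpc2 was no longer called (log2 fold change 0.19, adjusted p = 0.0978).

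**Figure D2:**
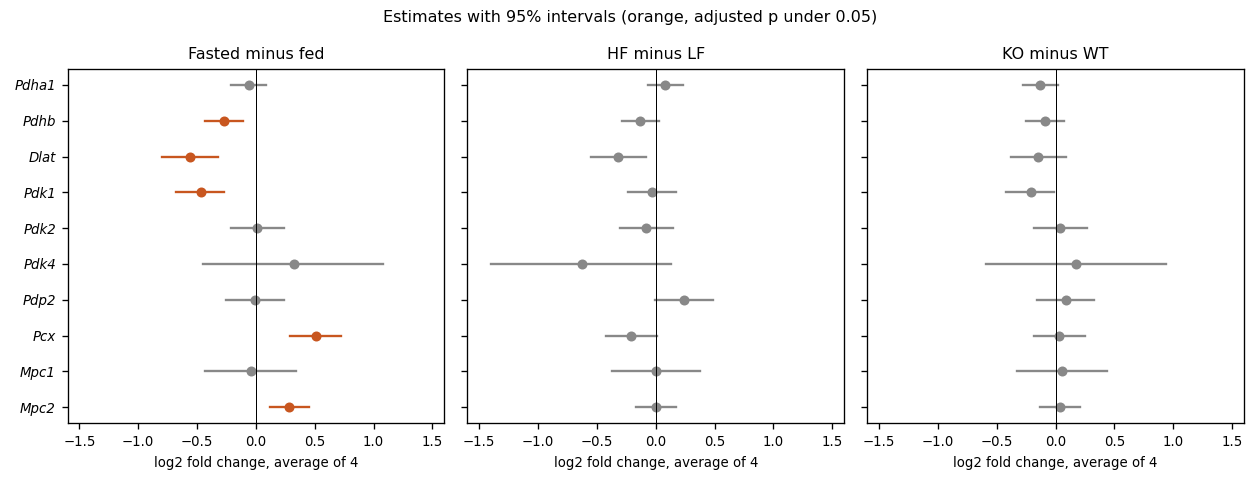
Log2 fold changes of the 10 genes for fasting (fasted to fed), diet (HF to LF) and genotype (KO to WT), each averaged over 4 comparisons, in 30 livers. Points are estimates, lines are 95% intervals, and orange marks an adjusted p under 0.05, which 5 genes reached for fasting and 0 for diet and genotype.

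Dlat encodes the E2 core of the complex, the acetyltransferase that carries the acetyl group on its lipoyl arms. In WT LF livers it was at 73.8, 79.5 and 90.0 CPM in the fed and at 26.1, 36.5, 51.1 and 63.4 CPM in the fasted mice. In KO LF livers it was at 33.7, 53.8, 69.7 and 80.1 CPM in the fed and at 34.4, 47.3, 48.4 and 54.9 CPM in the fasted mice. The fed and fasted values thus stood apart in WT LF mice, as they did for 20.1% of all genes tested in that comparison, and overlapped in KO LF mice, where 1 fed liver lay below all 4 fasted ones. In the left-out WT LF fed replicate 2 Dlat was at 50.3 CPM (scale of all 32 libraries), within the range of the fasted WT LF livers. On HF, Dlat was at 43.6, 44.1, 51.7 and 78.7 CPM in the fed and 34.7, 39.1, 41.6 and 43.6 CPM in the fasted WT livers, which met. In KO HF livers it was at 48.9, 49.3, 50.7 and 61.1 CPM in the fed and at 32.7, 36.7 and 38.4 CPM in the fasted mice, again without overlap (10.5% of all genes). The average log2 fold change was -0.56 ± 0.12 (SE; adjusted p = 0.000444 by edgeR).

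Pdhb encodes the beta subunit of E1, the enzyme that decarboxylates pyruvate. It was at 102 to 164 CPM (median 130.0) in the 15 fed livers and at 93.7 to 145 CPM (median 108) in the 15 fasted ones. Its decrease was smaller than that of Dlat and much alike in the 4 comparisons, with log2 fold changes of -0.27 in WT LF, -0.18 in KO LF, -0.34 in WT HF and -0.29 in KO HF mice, of which 0 were called on their own. The fed and fasted values overlapped in WT LF, KO LF and WT HF mice and, by 1 fed liver at 102 CPM, in KO HF mice. The average was -0.27 ± 0.08 (SE; adjusted p = 0.0102 by edgeR).

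Pdha1 encodes the alpha subunit of E1, which carries the serines that the kinases phosphorylate. It averaged 93.3 ± 13.9 CPM (SD, n = 15) in fed and 90.0 ± 9.18 CPM (SD, n = 15) in fasted livers, and the log2 fold change of -0.06 had a 95% interval of -0.21 to 0.09. In KO LF mice its values did not overlap, at 72.1, 78.8, 82.1 and 83.2 CPM in the fed and 92.2, 93.5, 95.3 and 98.1 CPM in the fasted livers, beside 13.7% of all genes tested, but that increase was not called (log2 fold change 0.26 ± 0.14 SE, adjusted p = 0.255). In the other 3 comparisons the estimate was negative, from -0.13 to -0.19. The exons of Pdha1 overlap those of Map3k15 on the opposite strand, which had 0 to 7 counts against 160 to 443 for Pdha1.

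Pdk1 encodes a kinase of the complex. It was at 87, 103 and 108 CPM in fed and at 56.2, 58.5, 66.8 and 75.8 CPM in fasted WT LF livers, without overlap. In the left-out WT LF fed replicate 2 Pdk1 was at 25.6 CPM (scale of all 32 libraries), below all of these. In KO LF mice it was at 59.4, 67.9, 84.8 and 92.6 CPM in the fed and 41.7, 49, 52.8 and 70.8 CPM in the fasted livers, and in WT HF mice at 49.8, 71.9, 88.9 and 110.2 CPM against 57.5, 62.4, 64 and 79.3 CPM. These overlapped, as did the KO HF values of 61.5, 76, 88.8 and 90.2 CPM and 49, 58.2 and 64.4 CPM. All 4 estimates were negative, from -0.29 in WT HF to -0.63 in WT LF mice, and none was called on its own. Without scaling beyond library totals Pdk1 was called lower in WT LF and in KO LF mice (adjusted p = 0.0214 and 0.0155 by edgeR), and in WT LF mice it was also called among genes with at least 10 counts in every liver (0.0387) and in 4 of the 30 fits that left out 1 liver. The average was -0.47 ± 0.10 (SE; adjusted p = 0.000607 by edgeR).

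Pdk2 encodes the kinase isoform described as widespread in tissues, liver included. It was at 17.5 to 44.4 CPM (median 34.7) in fed and at 22.1 to 53.8 CPM (median 34.8) in fasted livers. The average log2 fold change of 0.01 had a 95% interval of -0.21 to 0.24, so a change within these limits could not be told from none. In KO LF mice alone the estimate was higher, 0.49 ± 0.22 (SE), but it was not called (adjusted p = 0.143).

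Pdk4 had the widest spread, with the largest SD relative to its mean of the 10 genes in each of the 8 groups. It was at 7.21, 18.4 and 21.9 CPM in fed and at 6.33, 15.7, 16 and 24.2 CPM in fasted WT LF livers, and at 5.45, 12, 16 and 16.9 CPM in fed and 11, 19.8, 38.5 and 73.5 CPM in fasted KO LF livers. On HF it was at 2.2, 8.55, 11.9 and 27.7 CPM in fed WT, 2.26, 9.78, 10.2 and 24.3 CPM in fasted WT, 4.39, 8.41, 8.66 and 25.2 CPM in fed KO and 5.48, 7.49 and 19.5 CPM in fasted KO livers. Fed and fasted values overlapped in every genotype and diet. The average log2 fold change of 0.32 had a 95% interval of -0.45 to 1.08 (adjusted p = 0.638), so that neither a rise nor a fall within it could be told from none at this spread. The reads behind it were few, 6 to 188 counts.

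The highest Pdk4 values of 4 groups came from livers with marker RNA of other tissues. In the KO LF fasted group the livers at 73.5 and 38.5 CPM were those with 74.3 and 169 CPM of adrenal cortex markers, with counts on 6 of 6 genes, against 0.441 and 0.773 CPM in the others of that group. The WT HF fed and WT HF fasted livers at 27.7 and 24.3 CPM held 715 and 312 CPM of skeletal muscle markers, with counts on 8 of 8 genes, and the KO HF fed liver at 25.2 CPM held 1339 CPM of these and 2548 CPM of acinar pancreas markers, a list with counts on 10 of the 10 genes in the table. The liver with the most pancreas RNA, WT HF fasted at 17380 CPM, had 2.26 CPM of Pdk4. The sum of 8 adipose markers was 81.1 to 188 CPM in WT LF fasted and 156 to 358 CPM in KO LF fasted livers, against 24.7 to 91.6 CPM in the LF fed groups. Its highest value was in the KO LF fasted liver at 73.5 CPM of Pdk4. The genes of that list differed. Cidec had 2 to 6 counts in WT LF fed and 100 to 404 in WT LF fasted livers, and 0 to 3 and 24 to 531 in the KO ones. Adrb3 had 23 to 57 and 9 to 27 counts in the WT ones, and 15 to 39 and 10 to 22 in the KO ones. In KO LF fasted livers Adipoq reached 22 and Plin1 19 counts. Lep, which encodes the fat hormone leptin, had 0 counts in all LF livers. The part of RNA of other tissues in the Pdk4 values was not tested. Without the 6 livers, the fasting estimate of Pdk4 in KO LF mice, 1.50 ± 0.70 (SE; adjusted p = 0.176), became 0.32, and the KO to WT estimate in LF fasted mice went from 1.2 to 0.00. The 6 include the KO LF fasted livers at 73.5 and 38.5 CPM, so only those at 11 and 19.8 CPM were left in that group. Lower estimates thus followed from the choice of livers and say nothing on the source of the RNA. The limit of 50 CPM was set after the data were seen.

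**Figure D3:**
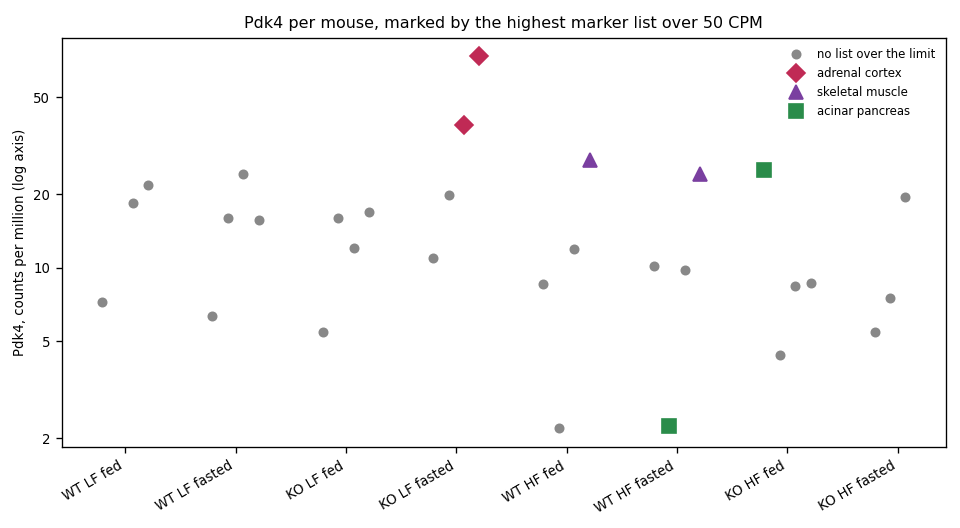
Pdk4 in CPM (log axis) in each of the 30 livers by group, with livers marked where the sum of skeletal muscle, acinar pancreas or adrenal cortex markers was above 50 CPM (symbol of the list with the highest sum). Of the 6 marked livers, 5 have the highest or second highest value of their group, and 1, with pancreas RNA, has the lowest.

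Pdp2 encodes a phosphatase that reactivates the complex and is known to respond to insulin. It was at 28.5 to 59.7 CPM (median 46.3) in fed and at 17.7 to 71.9 CPM (median 43.8) in fasted livers, with an average log2 fold change of -0.01 and a 95% interval of -0.25 to 0.24. In KO LF fasted mice it was at 34.3, 43.8, 60.7 and 71.9 CPM.

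Pcx encodes pyruvate carboxylase and showed the largest increase. It was at 170.0, 175 and 198 CPM in fed and at 256, 299.7, 336 and 369 CPM in fasted WT LF livers, without overlap, and at 186, 189, 207 and 245 CPM in fed and 203, 253, 346 and 443 CPM in fasted KO LF livers, with overlap. On HF it was at 144, 168, 206 and 223 CPM in fed and 184, 204, 283 and 326 CPM in fasted WT livers, and at 134, 191, 214 and 248 CPM in fed and 208, 235 and 240.0 CPM in fasted KO livers. Fed and fasted mice overlapped on HF in both genotypes, and the 3 fasted KO HF livers lay within the range of the fed ones. The average log2 fold change was 0.51 ± 0.11 (SE; adjusted p = 0.000398 by edgeR). It was 0.80 in WT LF and 0.59 in KO LF mice, both called, and 0.43 in WT HF and 0.21 in KO HF mice, neither called. The difference between the diets itself was -0.38 ± 0.21 (SE) and was not called (adjusted p = 0.466), so a weaker response on HF was not shown.

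Mpc2, which encodes a subunit of the mitochondrial pyruvate carrier, rose as well. It was at 294, 298 and 299 CPM in fed and 313, 336, 402 and 433 CPM in fasted WT LF livers, and at 266, 319.5, 321 and 322 CPM in fed and 359.6, 368, 414 and 582 CPM in fasted KO LF livers. Both LF comparisons were free of overlap. On HF the fed livers were at 309, 312, 338 and 381 CPM (WT) and 292, 297, 332 and 365 CPM (KO), and the fasted ones at 316, 349, 350.2 and 479.8 CPM (WT) and 301, 389 and 393 CPM (KO), which overlapped. The average log2 fold change was 0.28 ± 0.08 (SE; adjusted p = 0.0116 by edgeR), and that of KO LF mice alone, 0.49 ± 0.16 (SE), was also called (adjusted p = 0.0339).

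Mpc1, the partner subunit, had few reads, 10 to 45 counts in each of the 30 livers. It averaged 7.76 ± 2.54 CPM (SD, n = 15) in fed and 7.72 ± 2.72 CPM (SD, n = 15) in fasted livers, and its log2 fold change of -0.04 had a 95% interval of -0.43 to 0.34, about as wide as the increase of Mpc2 on either side. A pseudogene, Mpc1-ps, had 0 to 22 counts of its own in the table, and what became of reads that match both copies was not tested. Mpc1 also overlaps 4930506C21Rik on the opposite strand (0 to 9 counts). The value of Mpc1 is therefore uncertain.

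**Figure D4:**
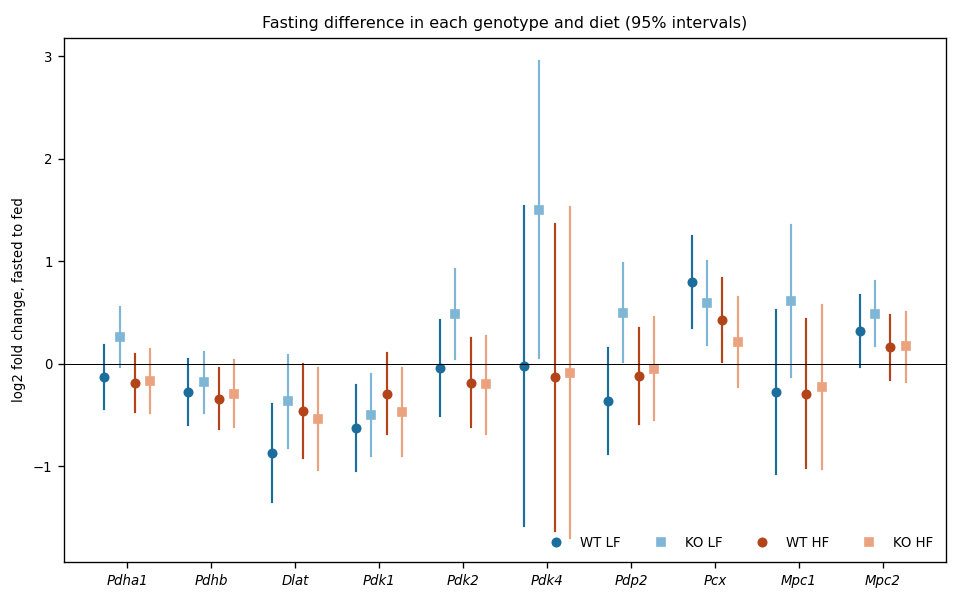
Log2 fold change from fed to fasted for each of the 10 genes in WT LF, KO LF, WT HF and KO HF mice, with 95% intervals, from the model of 30 livers. Dlat, Pdk1 and Pdhb lie below 0 and Pcx and Mpc2 above 0 in all 4, and the KO LF estimate of Pdk4, 1.50, has an interval of 0.06 to 2.95.

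Taken one comparison at a time, fasting called 2 of the 10 genes in WT LF mice, Dlat lower and Pcx higher, beside 7.54% of all genes (3.79% lower, 3.75% higher). It called 2 in KO LF mice, Pcx and Mpc2, both higher, beside 13.8% of all genes (6.53% lower, 7.26% higher). In WT HF mice (0.424% of all genes) and KO HF mice (0.527%) edgeR, DESeq2 and limma voom each called 0 of the 10, with 3 and 2 genes at an unadjusted p under 0.05 in edgeR, beside 9.19% and 7.53% of all genes. Values of fed and fasted mice did not overlap for 4 of the 10 genes in WT LF (20.1% of all genes), 2 in KO LF (13.7%), 0 in WT HF (5.93%) and 1 in KO HF mice (10.5%). For Dlat and Pdk1 in WT LF mice this held only with WT LF fed replicate 2 left out. In WT LF mice the calls did not stand without single livers. Without WT LF fasted replicate 2, WT LF fed replicate 3 or WT LF fed replicate 4 neither Dlat nor Pcx was called (adjusted p = 0.0942, 0.051 and 0.0929 for Dlat, 0.0654, 0.085 and 0.0929 for Pcx), and without WT LF fasted replicate 1 Dlat was lost (0.0666). In KO LF mice neither Pcx nor Mpc2 was called without KO LF fed replicate 1, 3 or 4, and 1 of the 10 genes was called when any of 13 other livers was left out.

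The 5 average calls held with each of the 30 livers left out in turn. By edgeR, the highest adjusted p-values over these were 0.00149 for Dlat, 0.00213 for Pdk1, 0.0257 for Pdhb, 0.0012 for Pcx and 0.0276 for Mpc2. On the 24 livers with at most 50 CPM of muscle, pancreas and adrenal markers all 5 were called as well, beside 2005 of all 11771 genes tested. Their log2 fold changes were -0.63, -0.43, -0.29, 0.52 and 0.37 in the same order. That limit did not cover adipose markers, whose sum was 24.7 to 184 CPM (median 43.3) in fed and 44.6 to 358 CPM (median 137) in fasted livers, and their part in these calls was not tested. In LF livers the genes of that list did not all go the same way (above). The sample labels give 2 sequencing lanes, with all WT LF fed libraries in lane 8, but they put more libraries in a lane than the pooling in the study's methods would give, so the lanes hold only as labelled. In a model of feeding state, diet and genotype within lane 8 (14 livers) the estimates were -0.48, -0.68, -0.31, 0.68 and 0.25, and Dlat, Pdk1 and Pcx were called, beside 1449 of all 12261 genes tested. Within lane 7 (16 livers) they were -0.39, -0.20, -0.21, 0.29 and 0.28, and 0 of the 5 were called, beside 344 of all 11303 genes tested. All 5 thus had the same direction in both lanes, and Pdhb and Mpc2 passed the test in neither. With lane as a term in the model of 30 livers, all 5 were called, beside 2179 of all 11566 genes tested.

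The order of the 8 groups differed by gene. Group means of Dlat ran from 81.1 ± 8.22 CPM (SD, n = 3) in WT LF fed to 35.9 ± 2.96 CPM (SD, n = 3) in KO HF fasted livers, with the 4 fed groups on top, and the 4 fed groups were also on top for Pdhb and Pdk1. The 4 fasted groups were on top for Pcx, from 315 ± 48.8 CPM (SD, n = 4) in WT LF fasted down to 181 ± 14.7 CPM (SD, n = 3) in WT LF fed livers, and for Mpc2. KO LF fasted livers had the highest mean of the 8 groups for Pdk2, Pdk4, Pdp2, Mpc1 and Mpc2. The share of all genes with their highest mean in that group was not computed. In none of the 10 genes did the values of 2 neighbouring groups in this order stand apart. Neighbours are the groups closest in mean, so overlap between them says little, and it was not computed over all genes.

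The diet was compared next. 0 of the 10 genes were called by edgeR on the average of the 4 HF to LF comparisons, beside 3.49% of all genes tested (261 genes higher and 143 lower, or 388 and 99 without scaling beyond library totals), and DESeq2 and limma voom called 0. In edgeR 1 of the 10 had an unadjusted p under 0.05, beside 15.8% of all genes. That gene was Dlat, at 32.7 to 78.7 CPM (median 43.6) in the 15 HF and 26.1 to 90.0 CPM (median 53.8) in the 15 LF livers, with a log2 fold change of -0.32 ± 0.12 (SE, adjusted p = 0.14). Its estimate was -0.61 within lane 8, where it was called (adjusted p = 0.00853), and 0.12 within lane 7 (adjusted p = 0.912). The estimate of Pdk4 was -0.63 with a 95% interval of -1.40 to 0.13, and Pcx and Pdp2 were at -0.21 and 0.24 with adjusted p-values of 0.345 and 0.338. Taken singly, the comparison of diets called 0 of the 10 genes in WT fed (0.0778% of all genes), WT fasted (1.12%), KO fed (0.00865%) and KO fasted mice (1.68%) with edgeR, DESeq2 and limma voom alike, with 1, 1, 0 and 2 genes at an unadjusted p under 0.05 in edgeR, beside 5.22%, 12.3%, 7.26% and 13.1% of all genes. These were Dlat in WT fed (-0.57 ± 0.24 SE), Pdp2 in WT fasted (0.50 ± 0.24 SE), and Pdk4 (-1.69 ± 0.77 SE) and Pcx (-0.45 ± 0.22 SE) in KO fasted mice. Without the 6 livers over the marker limit the KO fasted estimate of Pdk4 was -0.51. These include the KO LF fasted livers highest in Pdk4, so a smaller difference followed from leaving them out. The values of the diets did not overlap for 1 of the 10 genes in WT fed mice, Mpc2, higher on HF (8.33% of all genes), 0 in WT fasted mice (7.23%), 1 in KO fed mice, Pdha1, higher on HF (5.75%), and 1 in KO fasted mice, again Pdha1, but lower on HF (9.36%). In those KO fasted mice Pdha1 was at 80.9, 81.4 and 86 CPM on HF and at 92.2 to 98.1 CPM on LF, and its estimate of -0.19 was not called (adjusted p = 0.671).

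Loss of MCAD, the comparison for which the mice were made, moved 0 of the 10 genes past the threshold. On average over the 4 conditions the edgeR count was 0, beside 0.00865% of all genes, which is 1 gene, Acadm itself, and 1 of the 10 genes, Pdk1, had an unadjusted p under 0.05, as did 2.9% of all genes (log2 fold change -0.21 ± 0.10 SE, adjusted p = 1). In LF fed mice (0.0193% of genes called), LF fasted mice (0.0104%), HF fed mice (0.00998%) and HF fasted mice (0.0096%) edgeR, DESeq2 and limma voom each called 0 of the 10, and 1, 2, 0 and 0 of them had an unadjusted p under 0.05 in edgeR, beside 5.61%, 2.28%, 3.92% and 3.69% of all genes. These were Pdk1 in LF fed mice, lower in KO (-0.38 ± 0.16 SE, adjusted p = 0.858), and Pdk4 and Pdp2 in LF fasted mice, higher in KO (1.2 ± 0.54 and 0.66 ± 0.30 SE, adjusted p = 1 for both). For Pdp2 the values were 17.7, 32, 36.7 and 45.6 CPM in WT and 34.3, 43.8, 60.7 and 71.9 CPM in KO livers and overlapped. WT and KO values did not overlap for 1 of the 10 genes, Pdha1 in HF fasted mice, at 80.9, 81.4 and 86 CPM in KO and 87.6, 90.3, 92.2 and 104 CPM in WT livers (5.27% of all genes; adjusted p = 0.996 by edgeR), and for 0 in LF fed (6.68%), LF fasted (2.13%) and HF fed mice (2.65%). The interval of the average KO to WT difference was -0.28 to 0.02 for Pdha1, -0.25 to 0.07 for Pdhb, -0.18 to 0.25 for Pcx and -0.13 to 0.21 for Mpc2. It was -0.38 to 0.09 for Dlat, -0.42 to -0.01 for Pdk1, -0.18 to 0.27 for Pdk2 and -0.16 to 0.33 for Pdp2. The widest were those of Pdk4, -0.59 to 0.94, and Mpc1, -0.33 to 0.44.

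Whether fasting acted differently by diet or genotype was tested directly. edgeR, DESeq2 and limma voom called 0 of the 10 genes for fasting by diet (2.46% of all genes), fasting by genotype (0%) and diet by genotype (0%), with 0 of the 10 at an unadjusted p under 0.05 in each by edgeR, beside 13.3%, 4.95% and 3.43% of all genes. The smallest adjusted p-values for fasting by diet were those of Pdk2 (difference -0.42 ± 0.22 SE, adjusted p = 0.438) and Pcx (-0.38 ± 0.21 SE), and Pdp2 had the smallest for fasting by genotype (0.47 ± 0.24 SE, adjusted p = 0.981).

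Around these 10 genes, 32 others of the pathway were looked at, namely the remaining parts of the complex, lipoylation enzymes, makers and users of pyruvate, carriers of the cell membrane, the steps after oxaloacetate and citrate, and regulators. Of the 30 that could be tested, 9 rose and 5 fell with fasting, beside 9.77% higher and 9.14% lower over all genes tested. The largest change was that of Acly, ATP-citrate lyase, which makes acetyl-CoA for fat synthesis and fell from 395 ± 212 CPM (SD, n = 15) to 57.2 ± 15.3 CPM (SD, n = 15), a log2 fold change of -2.78 (adjusted p = 1.02e-09 by edgeR). Pklr, the pyruvate kinase of liver, fell by 2.36 on the log2 scale, and Me1, the malic enzyme that makes pyruvate and NADPH, by 1.08. Rises were found for Pck1, the enzyme that makes phosphoenolpyruvate from oxaloacetate (1.56), Gpt2, the mitochondrial alanine aminotransferase (0.97), Slc16a1, a monocarboxylate carrier of the cell membrane (0.88), and Ldha, a lactate dehydrogenase subunit (0.78). By group, 3 rose and 2 fell of 8 makers and users of pyruvate, 2 of 3 carriers of the cell membrane rose, 1 rose and 2 fell of 6 genes of the oxaloacetate and citrate steps, and 0 of 3 lipoylation genes were called. Of 6 regulators reported to act on Pdk4 or Pdk2, 2 rose and 1 fell.

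Of the other parts of the complex, Pdhx, which anchors E3 to the core, and Dld, E3 itself, were at log2 fold changes of -0.03 (95% interval -0.24 to 0.18) and -0.01 (-0.18 to 0.16). Pdpr, the regulatory subunit of the phosphatase, rose (0.44 ± 0.14 SE, adjusted p = 0.0286), from 11 to 26.9 CPM in fed to 16 to 52.1 CPM in fasted livers. Pdp1 had 0 to 13 counts and its interval ran from -0.73 to 0.80, and Pdk3, with 0 to 8 counts, was too low to be tested. With diet, 0 of the 30 rose and 4 fell, Gpt2, Mdh2, Ppargc1a and, with the largest change, Lpin1, a phosphatidate phosphatase and coregulator of PPAR alpha (-1.18 ± 0.33 SE, adjusted p = 0.0452), beside 2.26% higher and 1.24% lower over all genes tested. For genotype 0 of the 30 were called by edgeR, with 1 at an unadjusted p under 0.05, beside 0.00865% and 2.9% of all genes tested.

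**Figure D5:**
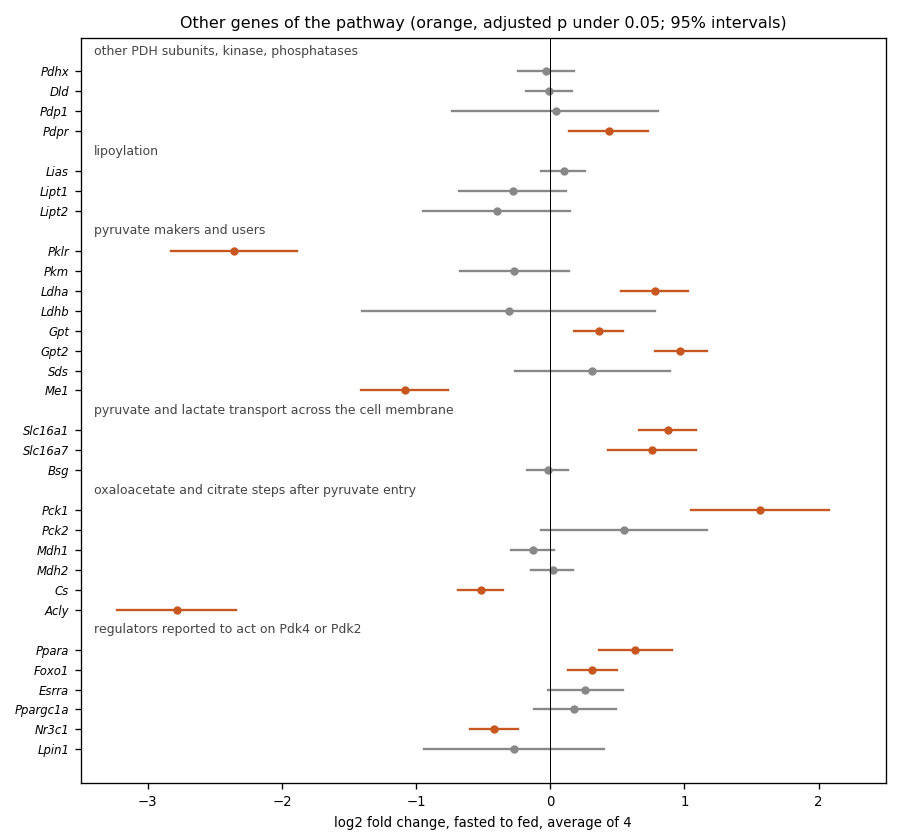
Log2 fold change from fed to fasted, averaged over 4 comparisons in 30 livers, for the 30 other genes of the pathway that could be tested, by group, with 95% intervals. Orange marks an adjusted p under 0.05 (9 higher, 5 lower), from Acly at -2.78 to Pck1 at 1.56.

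The 10 genes did not move as one across the 30 livers. On log2 CPM, Dlat and Pdk1 had a Pearson correlation of 0.63, Pdhb and Pdk1 of 0.62 and Pdhb and Dlat of 0.53, and within groups, after the group means were taken out, these were 0.38, 0.50 and 0.16. Pdk2 and Mpc1 had 0.53 overall and 0.47 within groups. Pcx was at -0.45 with both Dlat and Pdk1, and within groups at -0.25 and -0.06. The livers share their libraries and the fasting state across genes, so these values are a description.

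Genes most like the members of the set over the 30 livers, by the same correlation of log2 CPM among all 11566 genes tested, were Grn (0.88) and Acadvl (0.85) for Pcx, and Elovl6 (0.86) and 1810008I18Rik (0.82) for Pdk1. With the group means taken out, Grn was at 0.81 with Pcx and Elovl6 at 0.82 with Pdk1. Me1 was at 0.80 with Dlat. The genes most like Pdhb were Tubb2a (0.78) and Gpam (0.76), and those most like Mpc2 were Cisd1 (0.78) and Rpl14 (0.78). The correlations were lower for the genes that were not called for fasting, with Plekha5 (0.73) and Dnajc15 (0.64) for Pdk4, Micu2 (0.73) and Gm4879 (0.71) for Pdp2, Rhot1 (0.70) and Zfr (0.68) for Pdk2, Eif3i (0.64) and Hnf4aos (0.63) for Mpc1, and Brd7 (0.61) and Lyrm9 (0.60) for Pdha1. Leaving Dlat aside, the first gene was still the first by Spearman's rho for Pdha1, Pdhb, Pdk1, Pdk2 and Pcx.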

How the data were processed

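Per the labels and the study's methods, RNA of 32 freeze-clamped livers was made into 3′ libraries (QuantSeq) and sequenced as single reads, and the authors mapped the reads to GRCm38 (HISAT 0.1.5, SAMtools 1.2) and counted them per Ensembl gene in union mode (HTSeq 0.6.1p1). The values deposited by the authors are raw counts, whole numbers without normalization, and 3′ tags give 1 read per transcript end, so levels were not divided by length and were not compared between genes. The strand setting is not given in the sources used here. Symbols were taken from GENCODE vM21 for 19913 identifiers, and the 163 others held 0.125% of the counts. Promoter windows were RefSeq's on GRCm38.p6.

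Within lanes a model of feeding state, diet and genotype was fitted. CPM used TMM library sizes over the 30 livers (over all 32 for the left-out libraries and their comparisons). The test was edgeR 4.0.16 (filterByExpr, robust quasi-likelihood F test, R 4.3.3) with Benjamini-Hochberg adjustment over all genes tested. KO to WT comparisons by condition used the 7 or 8 livers of that condition, and all other comparisons a model of the 8 groups in 30 livers. SE is the log2 fold change over the root of F. Correlations used log2 CPM with a prior count of 2. Alternatives were DESeq2 1.42.0, limma 3.58.1 voom, other scaling, filters, lane, age, replicate block and left-out livers. The script was tested on simulated data. The 10 genes, the lists of other genes and the tests were chosen with earlier results of these data known. Named were the 10 genes, up to 8 called pathway genes by size of change, 5 further parts of the complex, 2 most alike genes each (1 of them is not reported here) and Acadm.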

Additional observations from a re-analysis of the deposited data

Results flagged for a closer look

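Of the 60 sets of 4 livers examined (10 genes in the 6 groups of 4), 2 held a liver far from its group, where chance gives about 1 in 20. Dlat was at 61.1 CPM in KO HF fed replicate 2, against 48.9 to 50.7 CPM in the other 3 livers of that group. Mpc2 was at 266 CPM in KO LF fed replicate 4, against 319.5 to 322 CPM in the others. Leaving out the first did not change an average call, and Mpc2 kept its average call for fasting without the second, whereas its call in KO LF mice was lost (adjusted p = 0.113 by edgeR).

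The library labelled KO HF fasted replicate 4, which the comparisons leave out and which is rich in heart markers, held 6 of the 10 genes above every one of the 30 livers when all 32 were scaled together. Pdk4 was at 2578 CPM, against 2.21 to 74.1 CPM in the 30 livers. Pdha1 was at 485 CPM (69.6 to 121 CPM), Pdhb at 493 CPM (94.5 to 165 CPM), Dlat at 269 CPM (26.3 to 90.7 CPM), Pdk1 at 113 CPM (42 to 111 CPM) and Pdk2 at 109 CPM (17.7 to 54.3 CPM). Pcx, at 13.5 CPM, was below all 30.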

How the results depend on the processing

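Of 694 counts of called genes recomputed under 16 alternatives and with each of the 30 livers left out in turn, 661 were the same as reported or within 1.5 times. The average fasting count of 5 became 1 with all 32 mice, 0 within lane 7 and 3 within lane 8. Over all genes tested, 1553 of 11502, 344 of 11303 and 1449 of 12261 were called in these settings, against 2187 of 11566 in the main one. The 32 mice include the library rich in heart markers. The count stayed at 5 in the 31 mice that left out only that library, beside 2120 of all 11631 genes tested. With all 32 mice Pdhb reversed to a log2 fold change of 0.00 (0.0013) and Mpc2 alone was called. The diet count of 0 became 1 within lane 8, beside 85 of all 12261 genes tested. The WT LF fasting count of 2 became 0 with all 32 mice and 0 to 3 with single livers left out. The KO LF fasting count of 2 became 0 with all 32 mice, 1 in the 31 mice that kept WT LF fed replicate 2, 1 without scaling beyond library totals (Pdk1 lower, with both Pcx and Mpc2 lost), 1 with limma voom, 1 with no filter on low counts, 1 with the replicate block, 1 without the robust fit, 1 in the 24 livers under the marker limit (chosen after the data were seen) and 0 to 2 with single livers left out. The cause was not tested. Single genes lost a call in 50 and gained one in 9 of 6924 results, and 276 that were called in neither setting changed sign.

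Replicate numbers did not pair the mice: same-numbered livers had median correlations of residuals of -0.0068 (genotype), 0.0086 (diet) and 0.0025 (feeding state). With the replicate block the average fasting count stayed at 5, beside 2124 of all 11566 genes tested. Depth limits Mpc1, Pdk4, Pdp1 and Pdk3, which had few reads.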

Other observations

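WT LF fed replicate 2, which the comparisons leave out, had Pdk1 at 25.6 CPM, Pcx at 99.6 CPM, Pdha1 at 65.5 CPM and Mpc2 at 251 CPM on the scale of all 32 libraries, each below its value in the 3 other WT LF fed livers (lowest 87.7, 171, 79 and 297 CPM). Also below them were its Dlat (50.3 CPM, against a lowest of 74.4 CPM), Pdhb (103 against 131 CPM) and Pdk2 (19 against 34.8 CPM). So were its Pdp2 (22.5 against 35.6 CPM) and Mpc1 (5.69 against 6.5 CPM). Its Pdk4, at 19 CPM, was within their range of 7.27 to 22.1 CPM. The lack of overlap between fed and fasted WT LF values of Dlat and Pdk1 held only with this liver left out.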
